A study of Mus musculus with 12 samples.

Results

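The cardiac splicing regulators Rbm20, Rbm24, Mbnl1, Mbnl2, Celf1, Celf2, Ptbp1, Ptbp2 and Srsf1 are RNA-binding proteins that choose which exons of a transcript are kept. They were taken by name, 9 genes of the 57683 in the table of polyadenylated RNA counts. Of these, 6 are listed under the current symbol. The other 3 were matched by Ensembl gene ID, since the table calls Celf1 Cugbp1, Celf2 Cugbp2 and Srsf1 Sfrs1. All 9 passed the filter on low counts. Cardiomyocytes were set against nonmyocytes, with 3 libraries of each. Both came from hearts of wild-type female FVB/NJ mice aged 12 weeks, separated by collagenase digestion and gravity. Cardiomyocyte RNA was taken at once, whereas nonmyocytes were first grown in culture until mostly fibroblasts remained, so an effect of culture cannot be told apart from one of cell type. On passage the sources differ, the protocol giving more than one and the label naming a P1 culture. Which heart gave which library is not stated, so the p-values measure spread among libraries, some of which may be technical.

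Alternative splicing lets a single gene give different proteins in different cells. RBM20 holds back exons of titin and of calcium-handling genes in heart muscle, and its loss causes cardiomyopathy. RBM24 promotes the inclusion of muscle exons. MBNL and CELF proteins act on many of the same exons in opposite directions, and their balance shifts as the heart matures after birth. PTBP1 represses muscle and neuronal exons in non-muscle cells and also lowers its relative PTBP2 by making that transcript skip an exon. SRSF1, an SR protein, promotes exon inclusion widely and is needed for the postnatal splicing programme of mouse heart. The deposited counts are totals per gene. They give the level of each regulator and of its target genes, and no splice form was measured.

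Levels are CPM, read counts set relative to the size of their library, with library sizes scaled by the trimmed mean of M values (TMM). Each log2 fold change has cardiomyocytes on top and carries its standard error (SE) after the ± sign. Library totals ran from 5956831 to 26851830 counts in cardiomyocytes and from 8126422 to 10792544 in nonmyocytes, and cardiomyocyte library 1 was the shallowest. The 8 cardiomyocyte markers summed to 124400 to 166400 CPM in cardiomyocyte libraries and to 894 to 1191 CPM in nonmyocyte libraries. The 8 fibroblast markers summed to 187 to 238 CPM in cardiomyocyte libraries and to 8264 to 9810 CPM in nonmyocyte libraries. The 9 endothelial markers summed to 625 to 1352 CPM in cardiomyocyte libraries, against 121 to 129 CPM in nonmyocyte libraries. Of 8 endothelial genes tested 7 were higher in cardiomyocytes. Pecam1, with 5 counts in cardiomyocytes and 0 in nonmyocytes, was too low to be tested. For macrophages and leukocytes (8 markers) the sums were 65.6 to 71.7 CPM against 94.9 to 106 CPM, and for smooth muscle and pericytes (7 markers) 397 to 852 CPM against 744 to 861 CPM. Of the 7, 4 were higher in cardiomyocytes, among them Rgs5 (7156 counts in cardiomyocytes and 152 in nonmyocytes), Kcnj8 (698 and 4) and Abcc9 (17467 and 79). Myh11, Pdgfrb and Notch3 were lower. The log2 fold change of Abcc9, 7.30, was close to those of the cardiomyocyte markers (7.04 to 7.29). The part of pericytes in these levels was not tested. The 8 neuron and Schwann cell markers summed to 7.75 to 11.2 CPM against 30.6 to 35.5 CPM. The 8 skeletal muscle markers reached 7258 to 10040 CPM against 69.1 to 89.8 CPM. Acta1 and Ckm, which heart muscle also uses, were called higher in cardiomyocytes, Myh1 (15 counts in cardiomyocytes and 59 in nonmyocytes) and Myh2 (1 and 77) were called lower, and Myod1 and Myog had 4 and 1 counts over the cardiomyocyte libraries.

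Among the 9 genes, the steepest change in either direction belonged to Rbm24 and Ptbp1. Their promoters are printed for that reason, each 250 bases before to 50 after the RefSeq start on build GRCm38.p6, plus strand, 5′ to 3′. Capitals mark E-boxes (CANNTG) and, in Ptbp1 only, a GC box (GGGCGG, here on the opposite strand).
Rbm24 (chr13:46418050-46418349): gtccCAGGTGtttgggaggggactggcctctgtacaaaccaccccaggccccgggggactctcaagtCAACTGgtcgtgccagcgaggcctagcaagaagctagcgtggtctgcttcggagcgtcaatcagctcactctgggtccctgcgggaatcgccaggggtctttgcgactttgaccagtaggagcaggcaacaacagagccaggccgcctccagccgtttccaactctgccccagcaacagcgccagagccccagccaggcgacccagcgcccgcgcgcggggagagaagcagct
Ptbp1 (chr10:79854182-79854481): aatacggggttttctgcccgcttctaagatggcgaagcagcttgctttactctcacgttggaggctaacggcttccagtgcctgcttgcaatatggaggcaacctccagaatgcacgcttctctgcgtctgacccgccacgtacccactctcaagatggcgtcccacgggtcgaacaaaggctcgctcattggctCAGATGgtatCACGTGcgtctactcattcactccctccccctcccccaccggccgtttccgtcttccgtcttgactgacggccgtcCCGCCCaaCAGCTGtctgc

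Both strands were searched. The Rbm24 window held 2 E-boxes and the Ptbp1 window 3, and 72.3% of the 32851 promoters in the RefSeq table hold at least 1. The GC box is in 35.7% of all promoters. Neither window held a MEF2 site (3.69% of all promoters), an MCAT box (CATTCC, 14.7%), a GATA site (AGATAA, 11.2%) or a TATA box (TATAAA, 13.6%), and Ptbp1 held 1 CCAAT box (CCAAT, 37.4%). Promoters were found for 8 of the 9 genes, 13 in all, and Rbm20 had no entry. Base composition differed widely among them. GC content was 64.7% for Rbm24, 58.3% for Ptbp1 and for Srsf1, 74.7% for Ptbp2, 74.3% for Celf1 and 56.3% for Mbnl2, with a median of 52.7% over all promoters. Mbnl1 and Celf2 have several starts, from 39.3% to 75% GC for Mbnl1 and from 46.3% to 80.3% for Celf2. A match or its absence is a description of these letters only.

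Of the 9 regulators, 4 were higher in cardiomyocytes, 1 was lower and 4 were not called in edgeR's quasi-likelihood test, at a threshold of 0.05 after Benjamini-Hochberg adjustment. Over all 14734 genes tested, 31.6% were called higher and 32.1% lower, 63.7% in either direction, so the share of regulators called is close to that of any gene. The difference was at least 2-fold for 3 of those higher and for the 1 lower. The median log2 fold change was 0.26 over the 9 regulators and -0.02 over all genes tested. In bulk RNA, fewer cells of a type and less RNA per cell cannot be told apart.

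**Figure D1:**
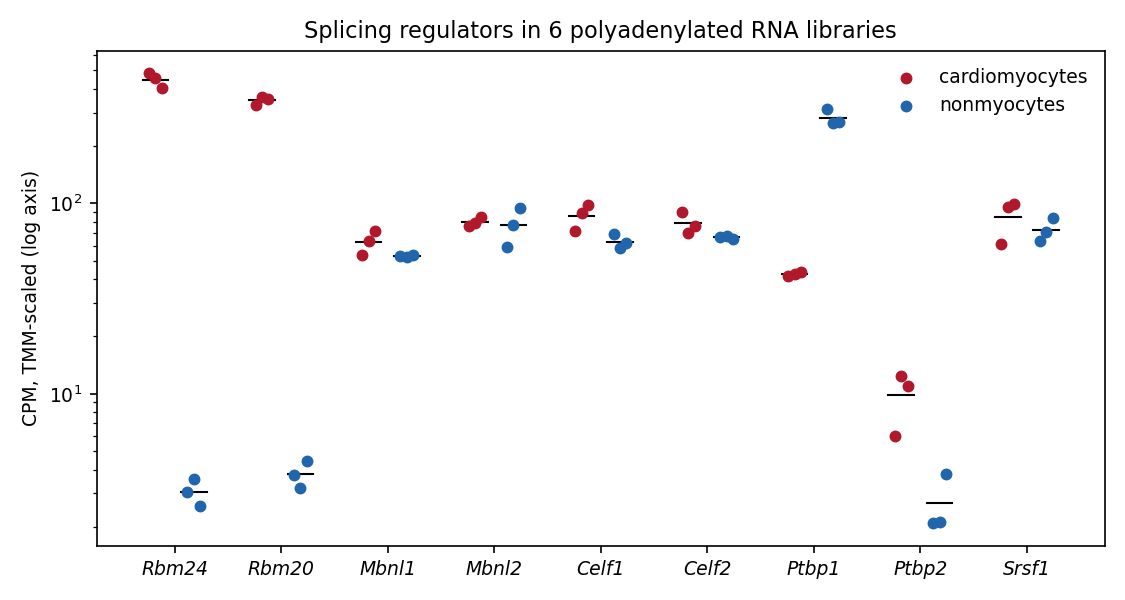
CPM of each regulator on a log axis in 3 cardiomyocyte libraries (red) and 3 nonmyocyte libraries (blue), with a bar at the mean. Rbm24 and Rbm20 lie above 300 CPM in cardiomyocytes and below 5 CPM in nonmyocytes, Ptbp1 runs the other way, and the MBNL, CELF and Srsf1 genes lie between 50 and 100 CPM in all 6 libraries.

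Rbm24 and Rbm20 carried the largest differences. Rbm24, a single-transcript gene with 3215 exon bases on chromosome 13 (46513669 to 46526459, mm9), held 483, 453 and 406 CPM in cardiomyocyte libraries 1 to 3, against 3.06, 3.575 and 2.56 CPM in nonmyocyte libraries 1 to 3. The lowest cardiomyocyte value lay far above the highest nonmyocyte value. Its log2 fold change was 7.19 ± 0.22, a 146-fold difference (edgeR adjusted p = 1.18e-10). Rbm20, on chromosome 19 (53751796 to 53941570, mm9), held 331, 360.3 and 354.5 CPM in cardiomyocytes, against 3.73, 3.19 and 4.42 CPM in nonmyocytes. These libraries did not overlap either, and relative to their mean the cardiomyocyte values were the tighter of the 2 sets. The log2 fold change was 6.52 ± 0.21, or 91.5-fold (edgeR adjusted p = 1.18e-10). Among all 14734 genes tested, these changes stood at the 98.6th percentile for Rbm24 and the 97.3rd for Rbm20.

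The nonmyocyte libraries also held some RNA of cardiomyocyte markers. The 8 markers (Myh6, Tnnt2, Tnni3, Actc1, Myl2, Pln, Ryr2 and Ttn) stood in nonmyocytes at 0.637% to 0.761% of their cardiomyocyte means. Rbm24 stood at 0.685%, within that range, from 33 to 41 counts per library. Rbm20 stood at 1.08%, from 33 to 57 counts per library. By library, Rbm20 was at 1.07%, 0.915% and 1.27%, while the markers spanned 0.712% to 0.910%, 0.585% to 0.755% and 0.529% to 0.704%. Rbm20 thus lay above all 8 markers in each of the 3 nonmyocyte libraries, and Rbm24 lay below, above and among them. The part of such RNA in the nonmyocyte levels of Rbm20 and Rbm24 was not tested.

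**Figure D2:**
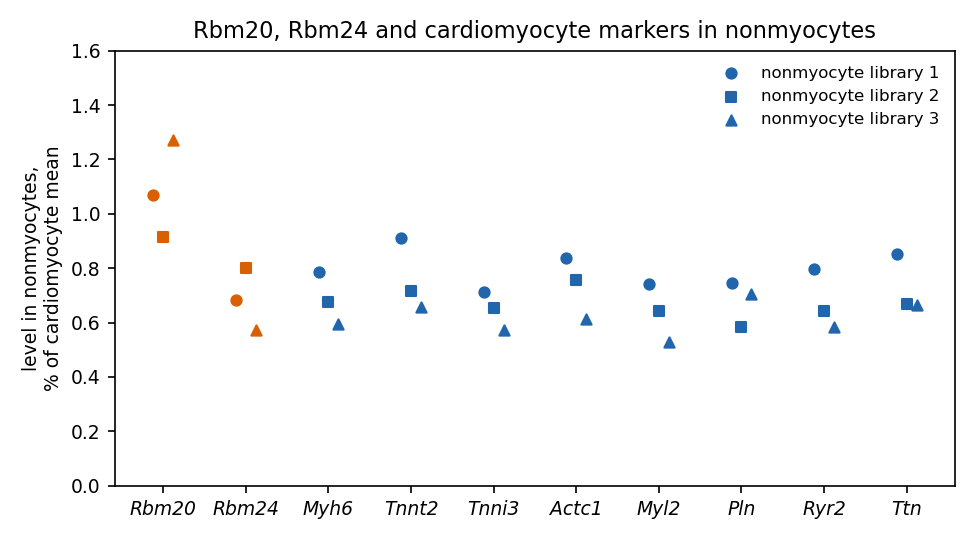
Level in each nonmyocyte library as a percent of the cardiomyocyte mean, for Rbm20 and Rbm24 (orange) and 8 cardiomyocyte markers (blue), with a symbol for each library. Rbm20 lies at 0.915% to 1.27% and Rbm24 at 0.572% to 0.799%, while the markers lie at 0.529% to 0.910%.

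The polypyrimidine tract-binding pair moved in opposite directions. Ptbp1, the form of most non-muscle cells, on chromosome 10 (79317350 to 79327177, mm9), held 41.65, 42.7 and 43.6 CPM in cardiomyocytes, against 314.2, 263 and 267 CPM in nonmyocytes. The cardiomyocyte libraries were nearly equal and all lay below the nonmyocyte ones. Its log2 fold change was -2.72 ± 0.16, so that the level was 6.59-fold higher in nonmyocytes (edgeR adjusted p = 9.76e-09). Ptbp2, the relative best known from neurons, on chromosome 3 (119421918 to 119486176, mm9), held 6.01, 12.4 and 11.01 CPM in cardiomyocytes, against 2.09, 2.13 and 3.803 CPM in nonmyocytes. It was a low transcript in both, with 31 counts in the shallowest cardiomyocyte library and 22 to 49 in nonmyocytes, and the groups did not overlap. Its log2 fold change was 1.89 ± 0.40 (edgeR adjusted p = 0.00115).

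Ptbp1 in cardiomyocytes stood at 15.2% of its nonmyocyte mean. Fibroblast markers stood there at 1.51% for Col1a1, 3.16% for Pdgfra and 19.2% for Dcn, while Lum, which was too low to be tested, was at 209%. Proliferation markers were lower in cardiomyocytes for all 7 genes tested and stood at 3.37% for Plk1 to 16.1% for Birc5. Their sum was 12.2 to 13.2 CPM in cardiomyocyte libraries and 188 to 203 CPM in nonmyocyte libraries. The part of nonmyocyte RNA or of cell division in the level of Ptbp1 was not tested.

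The muscleblind genes were close to level between the fractions. Mbnl1, on chromosome 3 (60305174 to 60433670, mm9), held 53.7, 63.4 and 72.0 CPM in cardiomyocytes, against 52.9, 52.4 and 53.4 CPM in nonmyocytes. Cardiomyocyte library 1 stood just above the highest nonmyocyte library. The log2 fold change of 0.26 ± 0.17 was not called (edgeR adjusted p = 0.209), and without that library it was 0.39 and called (edgeR adjusted p = 0.0379). Mbnl2, on chromosome 14 (120674929 to 120828847, mm9), held 76.5, 78.7 and 85.4 CPM in cardiomyocytes, against 59.3, 77.3 and 94.4 CPM in nonmyocytes. The nonmyocyte libraries spread over the whole cardiomyocyte range. The log2 fold change was 0.06 ± 0.19 (edgeR adjusted p = 0.798), and without nonmyocyte library 1 it was -0.04.

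The CELF genes act against MBNL on many exons. Celf1, on chromosome 2 (90780539 to 90859654, mm9), held 71.5, 88.8 and 98.6 CPM in cardiomyocytes, against 69.0, 58.4 and 61.6 CPM in nonmyocytes. Library 1 of cardiomyocytes was again the lowest and close to the highest nonmyocyte library. Celf1 was called higher at a log2 fold change of 0.46 ± 0.17 (edgeR adjusted p = 0.0353), but with library totals as the scale the sign turned to -0.22. The call was lost without cardiomyocyte library 2 (edgeR adjusted p = 0.102) or 3 (0.166), and without nonmyocyte library 2 (0.0702) or 3 (0.0525). Celf2, on chromosome 2 (6462915 to 7002348, mm9), held 90.7, 69.6 and 75.7 CPM in cardiomyocytes, against 66.3, 67.3 and 65.3 CPM in nonmyocytes. The groups did not overlap, though library 2 of each fraction differed by little. Its log2 fold change was 0.24 ± 0.17 and was not called (edgeR adjusted p = 0.217).

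Srsf1, on chromosome 11 (87860875 to 87867259, mm9), held 61.2, 95.4 and 98.8 CPM in cardiomyocytes, against 63.4, 70.8 and 84.1 CPM in nonmyocytes. Cardiomyocyte library 1 was the lowest of all 6 and the groups overlapped through it. The log2 fold change of 0.23 ± 0.20 was not called (edgeR adjusted p = 0.339). Without that library it was 0.45 and called (edgeR adjusted p = 0.0196). Libraries of the fractions did not overlap for 7 of the 9 regulators, 6 higher and 1 lower in cardiomyocytes. Over all genes tested, 34.1% were higher and 36.3% lower without overlap, 70.4% in either direction.

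How cardiomyocyte and nonmyocyte libraries are put on a common scale decided the sign of the small differences. With library totals alone the median log2 fold change of all genes tested was -0.70 instead of -0.02. Mbnl1 (-0.42), Mbnl2 (-0.62), Celf1 (-0.22), Celf2 (-0.42) and Srsf1 (-0.46) then turned negative, and Mbnl1, Mbnl2 and Srsf1 were called lower. Relative to that median, these 5 genes lay at 0.28, 0.08, 0.48, 0.28 and 0.24. With the core spliceosome genes as the scale, an alternative chosen after the data were seen, the same 5 genes ran from 0.44 for Mbnl2 to 0.84 for Celf1. Rbm24, Rbm20 and Ptbp2 stayed higher and Ptbp1 lower under all 5 scalings, with log2 fold changes of 6.53 to 7.59, 5.84 to 6.90, 1.19 to 2.27 and -3.40 to -2.33 over all alternatives run.

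**Figure D3:**
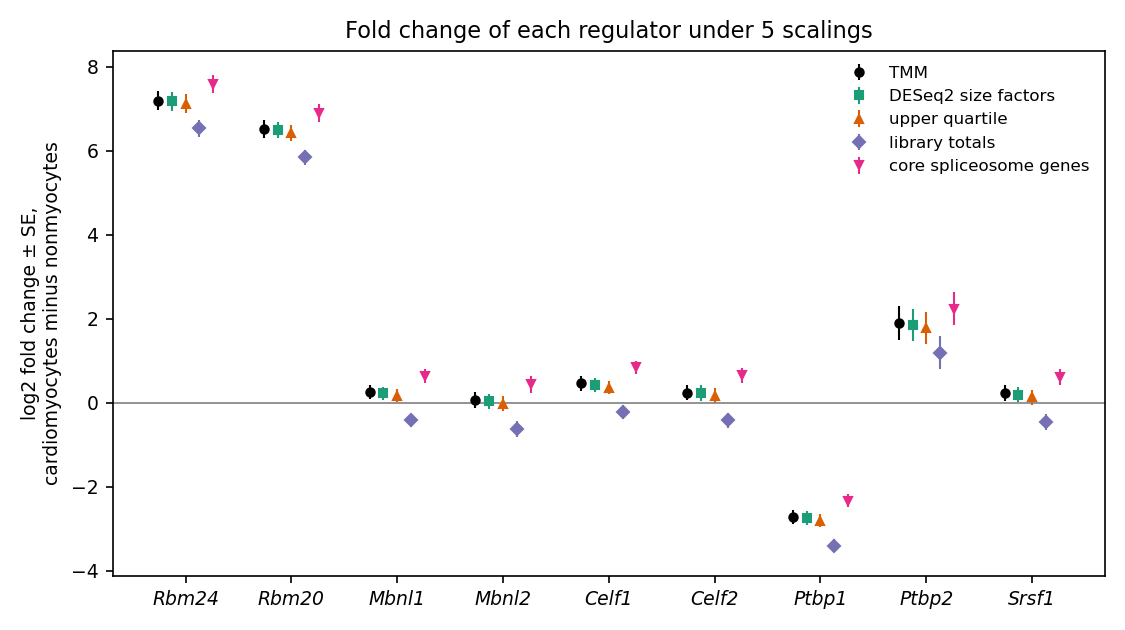
Log2 fold change ± SE of each regulator, cardiomyocytes minus nonmyocytes, under 5 ways of scaling the libraries (edgeR quasi-likelihood fit). Rbm24, Rbm20, Ptbp1 and Ptbp2 keep their side of 0, while the MBNL, CELF and Srsf1 genes lie below 0 with library totals (-0.62 to -0.22) and above it with TMM (0.06 to 0.46), and Mbnl2 is at -0.02 with upper quartiles.

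Ratios between related genes within a library do not depend on that scale. They were taken as log2 ratios of counts per kilobase (kb) of annotated exon, and 4 pairs were compared. With 3 libraries against 3, the smallest p that an exact permutation test can give is 0.1. For Ptbp1 over Ptbp2 the log2 ratio was 2.81, 1.80 and 2 in cardiomyocyte libraries, against 7.25, 6.97 and 6.15 in nonmyocyte libraries. The 2 sets stood far apart, with means of 2.21 ± 0.53 and 6.79 ± 0.57 (SD, n = 3 each), and the two-sided exact permutation p was 0.1 (0.2 adjusted over the 4 pairs). Ptbp2 supplied the remainder where Ptbp1 made up 81.8% ± 5.11 of the pair in cardiomyocytes and 99.1% ± 0.39 in nonmyocytes (SD, n = 3 each).

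For Rbm24 over Rbm20 the log2 ratio was 1.63, 1.41 and 1.28 in cardiomyocytes, against 0.79, 1.25 and 0.29 in nonmyocytes. The sets did not overlap but nearly met, with a difference in means of 0.66 (two-sided exact permutation p = 0.1, 0.2 adjusted over the 4 pairs). For Mbnl1 over Mbnl2 it was -1.70, -1.50 and -1.43 in cardiomyocytes, against -1.35, -1.75 and -2.01 in nonmyocytes. Mbnl2 was thus the more abundant per kb in all 6 libraries, and the difference of 0.16 between fractions lay within the spread (two-sided exact permutation p = 0.6, also 0.6 adjusted). For Celf1 over Celf2 it was -0.22, 0.48 and 0.50 in cardiomyocytes, against 0.18, -0.08 and 0.04 in nonmyocytes. The difference of 0.21 lay within the spread (two-sided exact permutation p = 0.4, 0.533 adjusted). On means per kb Celf1 lay above Celf2, at 10.2 against 8.54 CPM in cardiomyocytes and 7.46 against 7.20 CPM in nonmyocytes. Over bases in no other gene Celf1 averaged 13.85 CPM per kb in cardiomyocytes and 10.11 in nonmyocytes. Celf2 averaged 9.003 on those bases in cardiomyocytes and 7.59 in nonmyocytes. The longest annotated transcript has 7851 bases for Celf1 and 5443 for Celf2. Their mean levels were 86.28 and 78.65 CPM in cardiomyocytes and 62.98 and 66.27 CPM in nonmyocytes. Per kb of that transcript Celf2 would lie above Celf1 in both fractions. The size and the direction of the gap therefore depended on the length used.

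**Figure D4:**
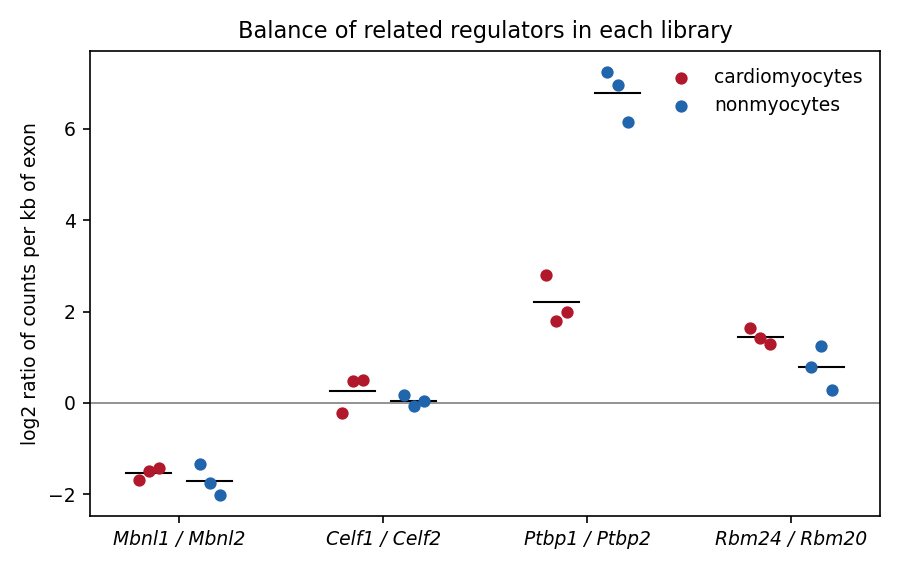
Log2 ratio of counts per kb of exon for 4 pairs of regulators in each cardiomyocyte (red) and nonmyocyte (blue) library, with a bar at the mean. Ptbp1 over Ptbp2 lies at 1.80 to 2.81 in cardiomyocytes and 6.15 to 7.25 in nonmyocytes, whereas the Mbnl and Celf pairs overlap between the fractions.

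Ranked by CPM per kb of exon, the regulators took different orders in the 2 fractions. In cardiomyocytes Rbm24 led at 139 ± 12.0 CPM per kb, followed by Rbm20 at 51.3 ± 2.29 and Mbnl2 at 32.7 ± 1.88 (SD, n = 3 each), and these steps exceeded the spread of the libraries. Srsf1 (15.3 ± 3.74) and Ptbp1 (14.5 ± 0.337) overlapped, as did Mbnl1 (11.3 ± 1.64) with Celf1 (10.2 ± 1.62) and Celf1 with Celf2 (8.54 ± 1.18). Ptbp2 came last at 3.29 ± 1.13 CPM per kb. In nonmyocytes Ptbp1 led at 95.7 ± 9.67 CPM per kb, before Mbnl2 (31.4 ± 7.15), Srsf1 (13.1 ± 1.89) and Mbnl1 (9.48 ± 0.0913), without overlap between neighbours. Celf1 (7.46 ± 0.643) and Celf2 (7.20 ± 0.108) overlapped. At the bottom stood Rbm24 (0.954 ± 0.158), Ptbp2 (0.898 ± 0.329) and Rbm20 (0.556 ± 0.0910), of which the first 2 overlapped. Of the level summed over all 9 genes per kb, Rbm24 took 48.6% in cardiomyocytes and 0.572% in nonmyocytes, and Ptbp1 5.07% in cardiomyocytes and 57.4% in nonmyocytes.

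These levels per kb carry an uncertainty from the annotation. Other annotated genes cover 48.6% of the exon bases of Mbnl1, 44.4% of Rbm20, 40.4% of Srsf1, 38.1% of Mbnl2 and 26.2% of Celf1, and 0% to 6.59% of the other 4 regulators. How reads in shared bases were counted is not given in the sources used here. The overlapping genes, nearly all catalogue lncRNA genes without names, held few reads themselves, with 0 to 4 counts per library over Rbm20, 0 over Srsf1 and at most 94 over Mbnl2. These low counts do not tell how many reads in shared bases were left out of the counts of the regulators. Over exon bases in no other gene, the means per kb in cardiomyocytes were 139 CPM for Rbm24, 92.2 for Rbm20, 52.8 for Mbnl2, 25.7 for Srsf1 and 21.98 for Mbnl1. Mbnl1 then passed Ptbp1, at 15.3, while the order of the others was the same. In nonmyocytes Rbm20, at 1.00, moved ahead of Ptbp2 and Rbm24. The lower ranks also depend on the transcript length taken. The longest annotated transcript has 5443 bases for Celf2, 5580 for Mbnl1 and 7851 for Celf1. Per kb of it Celf2 would pass both Mbnl1 and Celf1 in each fraction. The fold changes between fractions and the ratio differences do not use these lengths.

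Among 12004 other Ensembl genes tested, those most like each regulator were found by the root mean square (RMS) difference of centred log2 CPM over the 6 libraries, a description that rests mostly on the size of the fold change. Rbm20 lay closest to Ppargc1b, a coactivator of mitochondrial genes (153, 157 and 157 CPM in cardiomyocytes, 1.64, 1.64 and 2.02 CPM in nonmyocytes, RMS 0.086), and to the adenylyl cyclase gene Adcy5 (RMS 0.103). Rbm24 lay closest to the potassium channel gene Kcnk3 (RMS 0.084) and to Csrp3, which codes for a muscle LIM protein (RMS 0.123). For Ptbp1 the nearest were Zyx, which codes for the focal adhesion protein zyxin (RMS 0.070), and the fatty acid elongase gene Elovl1 (RMS 0.073). For Ptbp2 they were Pcgf5 (RMS 0.108) and Cog6 (RMS 0.130). Add3 and 2510003E04Rik were nearest to Mbnl1 (RMS 0.046 and 0.055), Cdk13 and Dock4 to Mbnl2 (0.064 and 0.081), and Vps4a and Atr to Celf1 (0.056 and 0.058). Lrrfip1 and Psmd1 were nearest to Celf2 (0.037 and 0.049), and Ccdc43 and Nol11 to Srsf1 (0.043 and 0.070).

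Relatives of the 9 regulators were also split between the fractions. Of the 8 relatives, 5 were tested, with 1 higher and 3 lower in cardiomyocytes. Rbm38, the closest relative of Rbm24, held 46.9, 53.1 and 46.25 CPM in cardiomyocytes, against 2.31, 2.03 and 2.64 CPM in nonmyocytes, a log2 fold change of 4.38 ± 0.24 (edgeR adjusted p = 4.99e-09). Ptbp3, listed as Rod1, ran with Ptbp1, at 3.10, 10.4 and 10.2 CPM in cardiomyocytes, against 23.4, 25.9 and 29.1 CPM in nonmyocytes (-1.66 ± 0.35, edgeR adjusted p = 0.00107). The levels of both are uncertain, with 59.3% and 51.0% of exon bases in other genes.

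Celf5, listed as Brunol5 and known mainly from brain, had 1, 11 and 8 counts in cardiomyocyte libraries and 479, 377 and 383 counts in nonmyocyte libraries. In nonmyocytes that was 29.7 to 36.4 CPM, and the log2 fold change was -6.26 ± 0.35 (edgeR adjusted p = 5.68e-09). Celf4, another brain relative, had 0 counts in all cardiomyocyte libraries and 31, 23 and 16 counts in nonmyocytes, and was called lower (edgeR adjusted p = 0.000234). Neuron and Schwann cell markers, whose sum was higher in nonmyocytes, were mixed: of 4 tested, Tubb3 (15 counts in cardiomyocytes and 889 in nonmyocytes) and S100b (20 and 100) were lower in cardiomyocytes, 1 was higher and Stmn2 (255 and 171) was not called. The other 4, among them Snap25 (9 and 4), Rbfox3 (4 and 16) and Sox10 (10 and 3), were too low to be tested, and the part of such cells in the CELF counts was not tested. Celf3 (0.935 ± 0.901 against 1.81 ± 0.777 CPM, SD, n = 3 each) was not called. Mbnl3 and Srsf9 were too low to be tested, and Celf6 had 0 counts in all 6 libraries. Other genes cover 55.4% of the exon bases of Mbnl3 and 92.1% of those of Srsf9, which leaves both levels uncertain.

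Among SR proteins and SR-like factors, 4 of 13 tested were higher in cardiomyocytes, 2 lower and 7 not called, with a median log2 fold change of 0.14. With library totals as the scale, 1 was higher and 6 were lower. Son, a large SR-like nuclear speckle protein, held 596 ± 92.5 CPM in cardiomyocytes and 327 ± 18.2 CPM in nonmyocytes (SD, n = 3 each), a log2 fold change of 0.87 ± 0.17. Srrm2, a speckle scaffold (447 ± 22.6 against 486 ± 31.7 CPM), and Srsf11 (84.0 ± 18.8 against 114 ± 30.4 CPM) were not called. Srsf3 was higher (2.72 ± 0.45) and Srrm1 lower (-2.06 ± 0.76), but other genes cover 59.2% and 80.7% of their exon bases, which leaves both levels uncertain. Srsf12 had 0 counts in cardiomyocytes and 24, 20 and 13 in nonmyocytes.

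The kinases that phosphorylate SR proteins included a muscle form. Srpk3, a muscle SR protein kinase, held 73.8, 63.5 and 71.5 CPM in cardiomyocytes, against 0.448, 0.193 and 1.86 CPM in nonmyocytes, a log2 fold change of 6.32 ± 0.45 (edgeR adjusted p = 5.64e-08). Its nonmyocyte level rests on 6, 2 and 24 counts. Dyrk1a, which also phosphorylates splicing factors, was higher at 1.83 ± 0.17 (102 ± 6.96 CPM in cardiomyocytes and 28.6 ± 2.27 CPM in nonmyocytes, SD, n = 3 each), as was Clk4 (1.49 ± 0.23). The general kinase Srpk1 was lower (-0.57 ± 0.17, edgeR adjusted p = 0.00958). Srpk2 (-0.22), Clk2 (-0.13) and Clk3 (-0.19) were not called and Clk1 was not tested. In all, 3 of 7 were higher and 1 lower, with a median of -0.13, and with library totals 3 were higher and 4 lower.

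Heterogeneous nuclear ribonucleoproteins (hnRNPs), which often repress exons, were mostly not called, with 4 of 32 tested higher, 8 lower and a median log2 fold change of -0.05. Raver2, a partner of PTB proteins, was higher at 15.2 ± 1.81 CPM in cardiomyocytes and 2.16 ± 0.902 CPM in nonmyocytes (SD, n = 3 each), a log2 fold change of 2.80 ± 0.37, and Hnrnph3 at 1.76 ± 0.26. Hnrnpa2b1 (460.2 ± 30.1 against 255 ± 32.9 CPM, 0.85 ± 0.16) was higher too, with 66.7% of exon bases in other genes. Pcbp3 (-1.99 ± 0.39), Khsrp (-0.80 ± 0.16) and Hnrnpab (-0.55 ± 0.16) were lower, and Hnrnpl stood at 288 ± 26.1 and 288 ± 26.0 CPM. With library totals as the scale, 2 hnRNP genes were higher and 25 lower.

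Of 31 tested regulators outside these families, 13 were higher, 7 lower and 11 not called, with a median log2 fold change of 0.45. With library totals 6 were higher and 12 lower. Rbfox1, listed as A2bp1, a muscle and brain exon regulator, held 42.2, 51.6 and 56.2 CPM in cardiomyocytes, against 3, 4 and 4 counts in nonmyocytes. It changed by 7.34 ± 0.32 (edgeR adjusted p = 6.69e-10), as steeply as Rbm24, with 52.1% of exon bases in other genes. Rbpms (2.27 ± 0.17, 54.9% of exon bases in other genes) and Fxr2 (0.95 ± 0.18) were also higher. Rbm47 (-3.74 ± 0.67) and Esrp2 (-3.10 ± 0.41), a regulator of epithelial splicing, were lower, as was the helicase gene Ddx17 (-0.83 ± 0.19). Ybx1 (0.32 ± 0.15) was not called.

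Core spliceosome genes, the shared machinery, were called higher in 2 of 40 cases and lower in 13, with 25 not called and a median of -0.37. Prpf8 (330.3 ± 63.5 against 381 ± 29.8 CPM) and Sf3b2 (184 ± 11.6 against 180 ± 15.96 CPM, SD, n = 3 each) were not called. Prpf19 (438 ± 44.3 against 109 ± 12.6 CPM, 2.01 ± 0.17) and Prpf4 (0.81 ± 0.21) were higher, and Sf3b4 (-1.58 ± 0.26) and Snrpd1 (-1.39 ± 0.25) had the largest falls. With library totals 1 was higher and 36 were lower. U2af1, U2af2 and Snrpe were not analysed here.

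**Figure D5:**
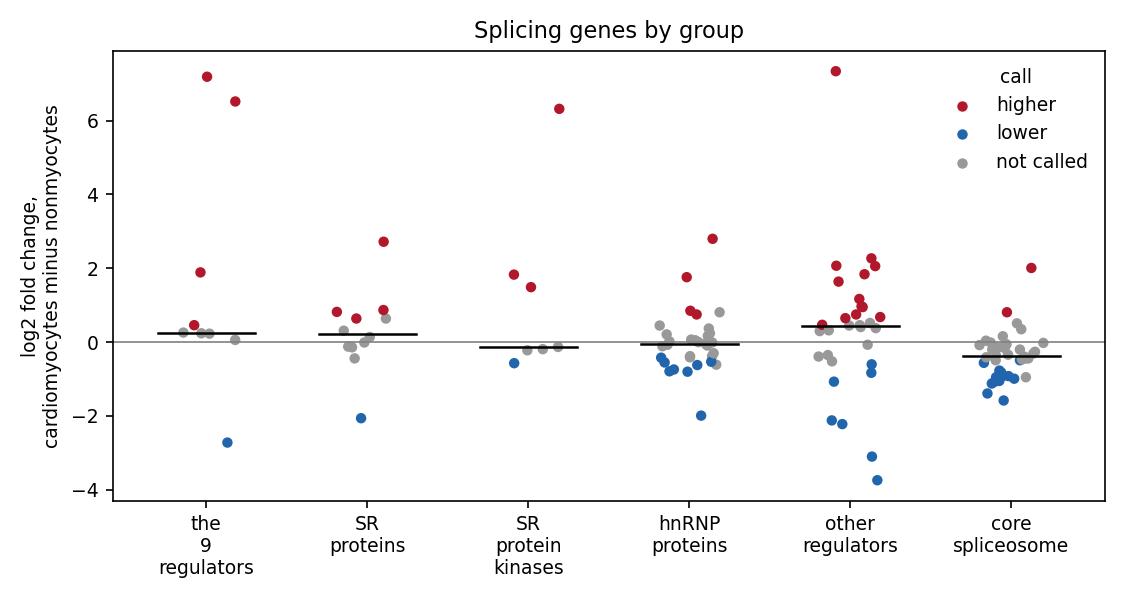
Log2 fold change of each tested gene in 6 groups of splicing genes, cardiomyocytes minus nonmyocytes, coloured by call, with a bar at the median; Srsf12, at 0 counts in cardiomyocytes, is not drawn. The 9 regulators run from -2.72 to 7.19 and most core spliceosome genes lie between -1.58 and 0.

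Genes whose exons these proteins are known to regulate were compared as totals. Over all genes tested, 31.6% were called higher and 32.1% lower, with a median log2 fold change of -0.02. The lists hold the cardiomyocyte markers Ttn, Ryr2 and Tnnt2. Of 20 genes with Rbm20-dependent splicing, 17 were higher in cardiomyocytes, 1 lower and 2 not called, with a median log2 fold change of 3.68. They include the giant spring protein titin (Ttn, 7.10 ± 0.28), triadin of the calcium release unit (Trdn, 7.39 ± 0.25) and Tpm1 (2.67 ± 0.20). Rtn4 was lower, at 17.6 ± 5.39 CPM in cardiomyocytes and 256 ± 59.2 CPM in nonmyocytes (SD, n = 3 each). Of 20 tested genes under MBNL or CELF control, 14 were higher and 3 lower, with a median of 2.28. The skeletal muscle type calcium channel gene Cacna1s (7.75 ± 0.53), the calcium release channel gene Ryr2 (7.21 ± 0.28) and Tnnt2 (7.04 ± 0.25) were among those higher. Fn1 (-6.03 ± 0.27) and Bin1 (5.19 ± 0.255 against 126 ± 19.0 CPM, -4.60 ± 0.21) were lower.

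The targets of PTBP1 leaned the other way. Of 14 tested, 4 were higher and 9 lower, with a median of -3.51. Fn1, Flna (-4.79 ± 0.27) and Tpm2 (-5.37 ± 0.29) were lower, and Insr (2.89 ± 0.27) and Tpm1 were higher. Ptbp2 itself is on this list. The 3 heart targets of SRSF1, Camk2d (1.94 ± 0.21), Ldb3 (5.77 ± 0.19) and Tnnt2, and the 4 genes with Rbm24-dependent splicing, Fxr1 (1.64 ± 0.20), Coro6 (6.31 ± 0.26), Abcc9 (7.30 ± 0.41) and Naca (3.76 ± 0.18), were all higher. The lists share genes, such as Tnnt2, Tpm1 and Fn1. The part of cell type in these counts of target genes was not tested.

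MicroRNAs known to act on these regulators were read in separate small RNA libraries of the same fractions, 3 each. In work on skeletal muscle and brain, miR-133 lowers Ptbp2 and miR-124 lowers Ptbp1. In mouse heart, miR-23 lowers the CELF proteins. The mature forms of 2 of these are printed from RefSeq (GRCm38.p6), with the seed, bases 2 to 8, in capitals.
mmu-miR-133b-3p: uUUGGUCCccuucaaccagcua
mmu-miR-23a-3p: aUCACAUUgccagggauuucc

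The 3p arms of the miR-133a copies, which share a mature sequence and are uncertain one by one, were higher in cardiomyocytes. Mir133a-2 held 159900, 259200 and 283700 CPM in cardiomyocytes, against 122, 165 and 9780 CPM in nonmyocytes, where library 3, with 83170 counts in all, stood apart. Its log2 fold change was 6.13 ± 1.88 (edgeR adjusted p = 0.0288). The call was lost without cardiomyocyte library 2 (edgeR adjusted p = 0.0729) or 3 (0.0550) or nonmyocyte library 2 (0.0683). Without nonmyocyte library 3 the change was 10.98. Mir133a-1 changed by 5.26 ± 1.86 (edgeR adjusted p = 0.0461), which was not called with library totals (0.0946). It was not called either without any 1 cardiomyocyte library (0.0567, 0.106 and 0.0858) or without nonmyocyte library 2 (0.106), and was 10.45 without nonmyocyte library 3. In small RNA 19% of the 343 arms tested were called higher and 33.8% lower.

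Mir133b held 173, 406 and 738 CPM in cardiomyocytes, against 0.987, 0 and 74.7 CPM in nonmyocytes, and was not called (4.65 ± 1.86, edgeR adjusted p = 0.0721). Mir1a-1, whose precursor MBNL1 binds, held 229, 1351 and 4216 CPM in cardiomyocytes, against 3.45, 1.92 and 244 CPM in nonmyocytes. This entry covers that copy only and need not give the level of miR-1 as a whole. Like Mir133b, Mir1a-1 was not called (4.70 ± 1.97, edgeR adjusted p = 0.0820). Without nonmyocyte library 3 both were called, at 9.51 and 9.54. DESeq2 called both with all libraries, Mir133b at 4.23 (DESeq2 adjusted p = 0.00986) and Mir1a-1 at 4.45 (DESeq2 adjusted p = 0.00621). Mir23a (0.54 ± 0.62) and Mir23b (1.02 ± 0.60) were not called, and Mir23b was called at 1.44 without cardiomyocyte library 1 (edgeR adjusted p = 0.0127). The 3p arm of Mir206 had 0 counts in cardiomyocytes and 1, 5 and 3 in nonmyocytes, and miR-124 is not reported here.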

How the data were processed

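Polyadenylated RNA of cardiomyocytes and cultured nonmyocytes was counted in 3 libraries each, from libraries that do not keep the strand per the labels' protocols. The deposited tables hold whole-number counts for each gene or small RNA arm, with no normalisation by the authors. Per the submitters' processing notes the build was mm9 and the tools included TopHat 1.3.0, Bowtie, HTSeq, edgeR and DESeq, with no role given for any. The mm9 annotation deposited with the counts gave positions, exon lengths and overlaps.

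Counts were analysed here with edgeR 4.0.16 in R 4.3.3: filterByExpr (minimum count 10), TMM scaling and the robust quasi-likelihood test, two-sided, with Benjamini-Hochberg adjustment over all 14734 genes or 343 small RNA arms tested, called under 0.05. The fit was tested on simulated data. DESeq2 1.42.0 and limma 3.58.1 (voom) were alternatives. RMS differences used log2 CPM with a prior count of 0.5. Figures were drawn with matplotlib 3.10.9.

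The 9 members, the gene lists and the rule for named genes were chosen with earlier results of these data known. The rule names all members and all of a list of up to 9 genes. Of longer lists it names the 3 most abundant tested genes and the 2 largest changes called each way. Marker genes named singly were chosen after their values were seen. Some genes that the rule names are not reported here.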

Additional observations from a re-analysis of the deposited data

How the results depend on the processing

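Rbm24, Rbm20, Ptbp1 and Ptbp2 kept their direction and their call under all 17 alternatives run, which included DESeq2, limma voom and each library left out. For the other 5 genes scaling mattered most. With library totals Mbnl1 was -0.42, Mbnl2 -0.62, Celf1 -0.22, Celf2 -0.42 and Srsf1 -0.46 (edgeR quasi-likelihood adjusted p 0.0299, 0.0108, 0.221, 0.0539 and 0.0395), and 4 of the 9 genes were lower and 3 higher. With upper quartiles Mbnl2 was -0.02 and Celf1 0.36 and no longer called, and Celf1, at 0.46, was not called against a 2-fold change. Scaled by core spliceosome genes, 7 were higher, with Mbnl1 at 0.64, Celf2 at 0.65 and Srsf1 at 0.60. Leaving out 1 library gave 0.17 to 0.39 for Mbnl1, -0.04 to 0.29 for Mbnl2, 0.37 to 0.60 for Celf1 and 0.14 to 0.45 for Srsf1. With library totals Mir23a was -1.10 and Mir23b -0.64.

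The replicate block changed no call among the 9 genes (Celf1 0.45, Ptbp2 1.86). Libraries were not treated as pairs, since the labels do not tie replicate numbers to hearts. Same-numbered polyadenylated RNA libraries correlated at 0.132, 0.040 and 0.075 in their deviations from the group means. Libraries of different number correlated at -0.116 to 0.050. With 3 libraries per fraction these values cannot decide whether the libraries are paired. Each library correlated best with its own number except cardiomyocyte library 2 and nonmyocyte library 2. In small RNA the block gave 6.31 for Mir133b and 6.18 for Mir1a-1, both then called, and 8.52 for Mir133a-1 and 9.08 for Mir133a-2, with same-number correlations of 0.075, -0.081 and 0.248. Low counts limit Ptbp2 (22 to 49 per nonmyocyte library) and the nonmyocyte levels of Rbm20 and Rbm24 most.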
